A study of Mus musculus with 15 samples.

Results

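The 10 serotonin receptor genes Htr1a, Htr1b, Htr1d, Htr1f, Htr2a, Htr2c, Htr3a, Htr4, Htr5b and Htr7 were followed in 15 RNA sequencing libraries of the mouse suprachiasmatic nucleus (SCN), the hypothalamic seat of the master circadian clock. They were picked out by gene symbol, with no threshold on a measured value. All 10 were among the 24419 genes of the count table, and all 10 passed the filter on low counts, which left 16910 genes for testing. All mice were C57BL/6 and 8 to 12 weeks old, and each library pooled 2 to 4 punches of tissue. Mice without the REV-ERB receptors alpha and beta (REV-ERBS DKO, here DKO) gave 4 libraries at circadian time (CT) 16 h and 3 at CT 4 h. Control mice gave 5 libraries at CT16 and 3 at CT4. CT4 lies in the subjective day and CT16 in the subjective night. The sources used here do not give the promoter or Cre line behind the deletion, or what the controls carried.

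Serotonin reaches the SCN from neurons of the midbrain raphe, and this input is known to dampen the resetting of the clock by light and to shift the clock in the subjective day. Its receptors fall into classes by what they couple to. The Htr1 receptors act through Gi proteins and lower cyclic AMP, the Htr2 receptors act through Gq and phospholipase C, Htr4 and Htr7 act through Gs and raise cyclic AMP, and Htr3a encodes a subunit of a cation channel that opens when serotonin binds. Htr5b is a separate member whose coupling is less well described. REV-ERB alpha and beta are nuclear receptors that repress transcription from sites built on the letters AGGTCA. The comparisons asked whether receptor transcripts differed between DKO and control SCN at each time, and between CT16 and CT4 in each genotype.

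RefSeq promoter windows (build GRCm38.p6, 250 bases before to 50 bases after the annotated start) were found for 7 of the 10 genes, as 8 windows because Htr1d has more than one start. Htr3a, Htr4 and Htr5b were not matched. Searched on both strands, AGGTCA occurred in 1 of the 8 windows, that of Htr2c, against 16.3% of all 32851 windows. The longer TAGGTCA, which holds it, occurred in none of the 8, against 2.61% of all windows. The core letters GGTCA, which lie within both, occurred in 2 of the 8, of Htr1d and Htr2c, against 40.5% of all windows. The windows of Htr2c and Htr7, the most abundant receptors below, are shown 5′ to 3′ on the strand of the gene, since one holds the letters and the other does not. Htr2c is read at chrX:146962263-146962562 on the plus strand and Htr7 at chr19:36057311-36057610 on the minus strand. Capitals mark AGGTCA as it reads from the other strand, at position -230 from the start of Htr2c.
Htr2c: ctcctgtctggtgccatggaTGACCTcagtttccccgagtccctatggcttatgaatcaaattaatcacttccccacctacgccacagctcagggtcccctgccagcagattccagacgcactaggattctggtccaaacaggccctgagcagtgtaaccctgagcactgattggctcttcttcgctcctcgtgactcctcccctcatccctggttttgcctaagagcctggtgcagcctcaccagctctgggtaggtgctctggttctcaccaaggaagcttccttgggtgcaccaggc
Htr7: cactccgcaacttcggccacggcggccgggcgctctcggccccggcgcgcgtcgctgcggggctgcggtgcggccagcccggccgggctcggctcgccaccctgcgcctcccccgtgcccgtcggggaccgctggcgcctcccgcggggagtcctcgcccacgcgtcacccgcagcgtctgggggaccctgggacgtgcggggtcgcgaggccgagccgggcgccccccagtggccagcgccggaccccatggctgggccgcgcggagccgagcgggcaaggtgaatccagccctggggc
The Htr2c window is 56.3% G and C with 5 CpG sites, and the Htr7 window 81.0% with 46 sites, against medians of 52.7% and 7 over all windows. A match of letters is a description only, since binding was not measured here.

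Total counts ran from 32580803 to 68757624 per library. Levels are given as CPM, read counts scaled to library size with TMM factors. The targeted genes were not lower in DKO: at CT16, Nr1d1 had 241 to 378 CPM in DKO libraries and 135 to 150 CPM in control libraries, and Nr1d2 had 198 to 259 CPM in DKO libraries and 96.7 to 118 CPM in control libraries. The counts sum whole exon sets, so they do not check the genotype labels. Of 14 SCN markers, among them Six3, Lhx1, Vip and Avp, none had a median under 1 CPM. Of 17 markers of other hypothalamic nuclei only 3 did, so these levels do not show that the punches held SCN alone. DKO CT16 replicate 4 stood apart, with 18626 CPM summed over 8 myelin genes against 2678 to 9034 CPM in the other 14 libraries, and with the lowest sum of 8 neuronal genes, 3629 CPM. It was also the lowest of all 15 libraries for Htr1a, Htr1b, Htr2a and Htr7. In tissue punches, fewer cells of a type and less RNA per cell cannot be told apart.

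To compare receptors with each other, CPM was divided by exonic length in kilobases. Htr2c stood highest, at 15.3 ± 1.69 CPM per kb (SD over 15 libraries), followed by Htr7 at 8.09 ± 1.53 CPM per kb. Htr1a at 5.01 ± 1.03 and Htr1b at 4.81 ± 0.768 CPM per kb came next, then Htr2a at 3.48 ± 0.712 CPM per kb. The low members were Htr3a at 1.89 ± 0.901, Htr4 at 1.32 ± 0.276, Htr5b at 1.09 ± 0.328, Htr1d at 0.538 ± 0.188 and Htr1f at 0.237 ± 0.0873 CPM per kb. Only the ranges of Htr2c and Htr7 failed to overlap between neighbours in this order, though Htr7 lay above Htr1a within each of the 15 libraries. The order of Htr1a and Htr1b differed by time, since Htr1a was the higher in 4 of 4 DKO and 5 of 5 control libraries at CT16, and Htr1b in 3 of 3 DKO and 2 of 3 control libraries at CT4. The place of Htr3a differed by group. On the per-length scale it stood at 1.51 in DKO CT16, about level with Htr4 at 1.45, and at 3.01 in control CT16, where it did not overlap with Htr4 at 1.47. In DKO CT4 it was eighth at 1.01, below Htr5b at 1.26 and Htr4 at 1.14, and in control CT4 it stood at 1.41, overlapping with Htr5b at 1.16. Among the 16910 genes tested, 69.4% had a lower per-length level than Htr2c, 52.7% than Htr7, 26.8% than Htr3a and 8.11% than Htr1f.

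**Figure D1:**
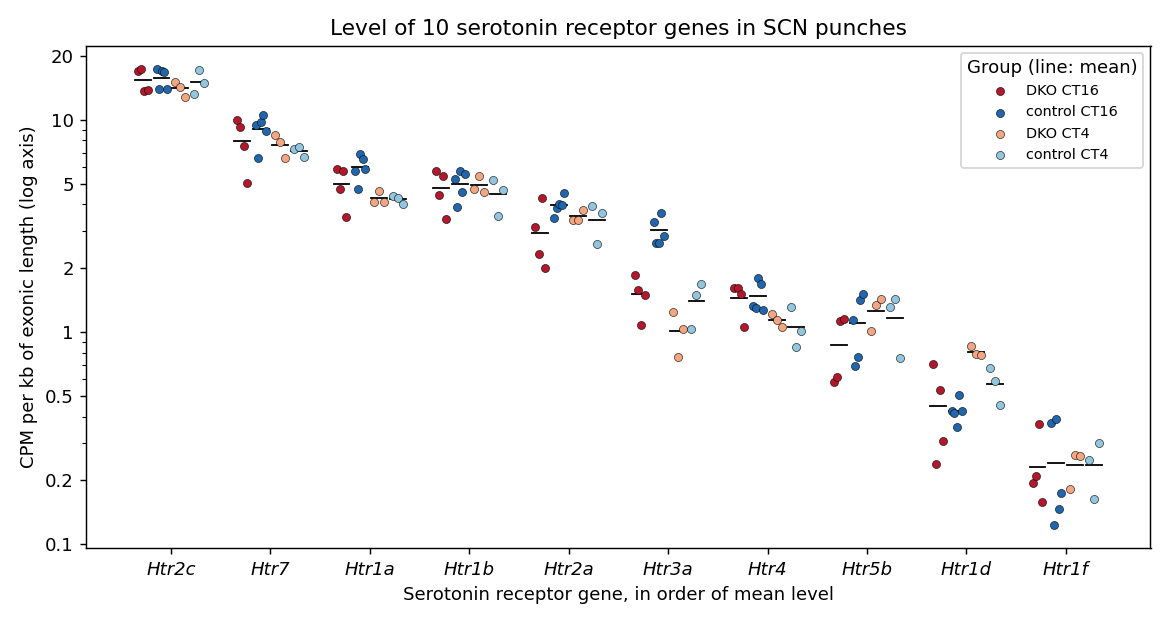
Level of each receptor gene in CPM per kb of exonic length, on a log axis, with a point for each of the 15 libraries coloured by group. Htr2c and Htr7 stand at the top, at means of 15.3 and 8.09 CPM per kb, and Htr1f at the bottom, at 0.237 CPM per kb.

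The exonic lengths behind these levels are those of the count table (mm10). Htr2c (chromosome X, 146962513 to 147197277, plus strand) was counted over 4750 bases in 6 exon blocks, 50.9% of its exonic length in a fuller GENCODE annotation, and Htr2a (chromosome 14, 74640840 to 74706859, plus strand) over 53.0% of it. Htr1b (chromosome 9, 81631392 to 81632552, minus strand) was counted over 1161 bases in 1 block, 24.6% of the GENCODE length, which makes its per-length level the least certain. In addition, 473 of its bases lie in exons of D430036J16Rik on the opposite strand, a gene with 1.12 to 2.43 CPM. Whether strand was used in counting is not given, so reads of the pair cannot be told apart here. Htr3a (chromosome 9, 48899213 to 48911099, minus strand) was counted over all 2083 bases of its 9 exon blocks, and no exon of another listed gene overlapped them.

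Grouped by coupling, the Gq receptors Htr2a and Htr2c made up 45.1% ± 2.76 of the summed per-length level of the 10 genes (SD, n = 15 libraries). The Gi receptors Htr1a, Htr1b, Htr1d and Htr1f made up 25.4% ± 2.19, and the Gs receptors Htr4 and Htr7 22.4% ± 1.83. The channel subunit Htr3a made up 3.75% ± 0.859 in DKO CT16 (n = 4) and 6.55% ± 0.770 in control CT16 (n = 5), and 2.61% ± 0.614 in DKO CT4 and 3.63% ± 0.878 in control CT4 (n = 3 each).

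Htr3a was the only receptor called in any comparison. At CT16 its level in DKO was lower than in control, at a fold of 0.50, and within control it was higher at CT16 than at CT4, at a fold of 2.15. Single libraries had 3.88, 3.30, 2.25 and 3.11 CPM in DKO CT16, against 6.86, 5.46, 5.49, 7.62 and 5.93 CPM in control CT16. At CT4, DKO libraries had 2.59, 1.59 and 2.14 CPM, against 2.16, 3.12 and 3.51 CPM in control. Every DKO library at CT16 lay below every control library of that time, while at CT4 the genotypes overlapped. Control CT16 thus held the 5 highest values of all 15 libraries.

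**Figure D2:**
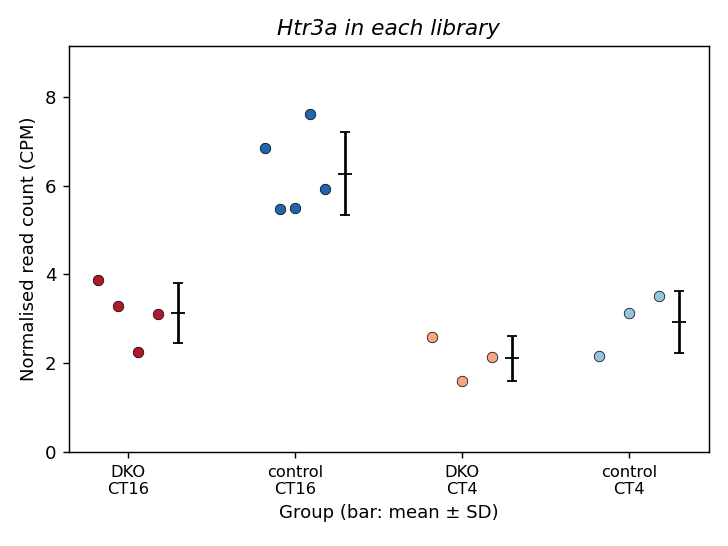
Htr3a in CPM in each library of the 4 groups, with the mean and SD of each group beside its points. The 4 DKO CT16 libraries lie between 2.25 and 3.88 CPM, all below the 5 control CT16 libraries at 5.46 to 7.62 CPM.

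Group means of Htr3a at CT16 were 3.14 ± 0.675 CPM in DKO (SD, n = 4) and 6.27 ± 0.942 CPM in control (n = 5). The log2 fold change was -1.0 ± 0.19 (standard error, 95% interval -1.40 to -0.60), and Htr3a fell in DKO (edgeR quasi-likelihood test, adjusted p = 0.00494). It was the 1 of 10 receptors called at an adjusted p under 0.05, where 4.66% of all genes tested were called, 2.83% higher and 1.83% lower. At an unadjusted p under 0.05, Htr2a and Htr3a passed at CT16, against 20% of all genes. It was also the only receptor whose genotypes did not overlap at CT16, as held for 6.97% of all genes. In the 29 other settings tried, the fall was called in every one, at log2 changes of -1.20 to -0.80 and adjusted p of 1.27e-05 to 0.0407. Without DKO CT16 replicate 4 the change was -1.0 (adjusted p = 0.0139), and with control CT4 replicate 1 and both DKO CT16 replicates 3 and 4 left out it was -0.80, the smallest.

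Between times in control, Htr3a rose at CT16, to 6.27 ± 0.942 CPM against 2.93 ± 0.695 CPM at CT4 (n = 5 and 3), a log2 change of 1.10 ± 0.21 (95% interval 0.65 to 1.55, adjusted p = 0.00821). It was again the 1 receptor called, with a background of 4.21% of all genes, 2.13% higher and 2.08% lower. Unadjusted, Htr1a, Htr3a and Htr4 passed, against 19.9% of all genes. The CT16 and CT4 libraries did not overlap for Htr1a and Htr3a, as held for 15.8% of all genes. Without control CT4 replicate 1, the lowest of its group for Htr3a, the change was 0.92 and the call was lost (adjusted p = 0.0537). In DKO the same comparison gave 3.14 ± 0.675 CPM at CT16 (n = 4) and 2.11 ± 0.501 CPM at CT4 (n = 3), a log2 difference of 0.57 ± 0.22 that did not pass (adjusted p = 0.191). DKO minus control at CT4 was -0.47 ± 0.24 (95% interval -0.98 to 0.04, adjusted p = 0.388). The interaction, which tests whether the genotype difference itself differed between times, was -0.53 ± 0.30 (95% interval -1.18 to 0.11, adjusted p = 0.421), so a change of the day and night difference in DKO was not established.

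**Figure D3:**
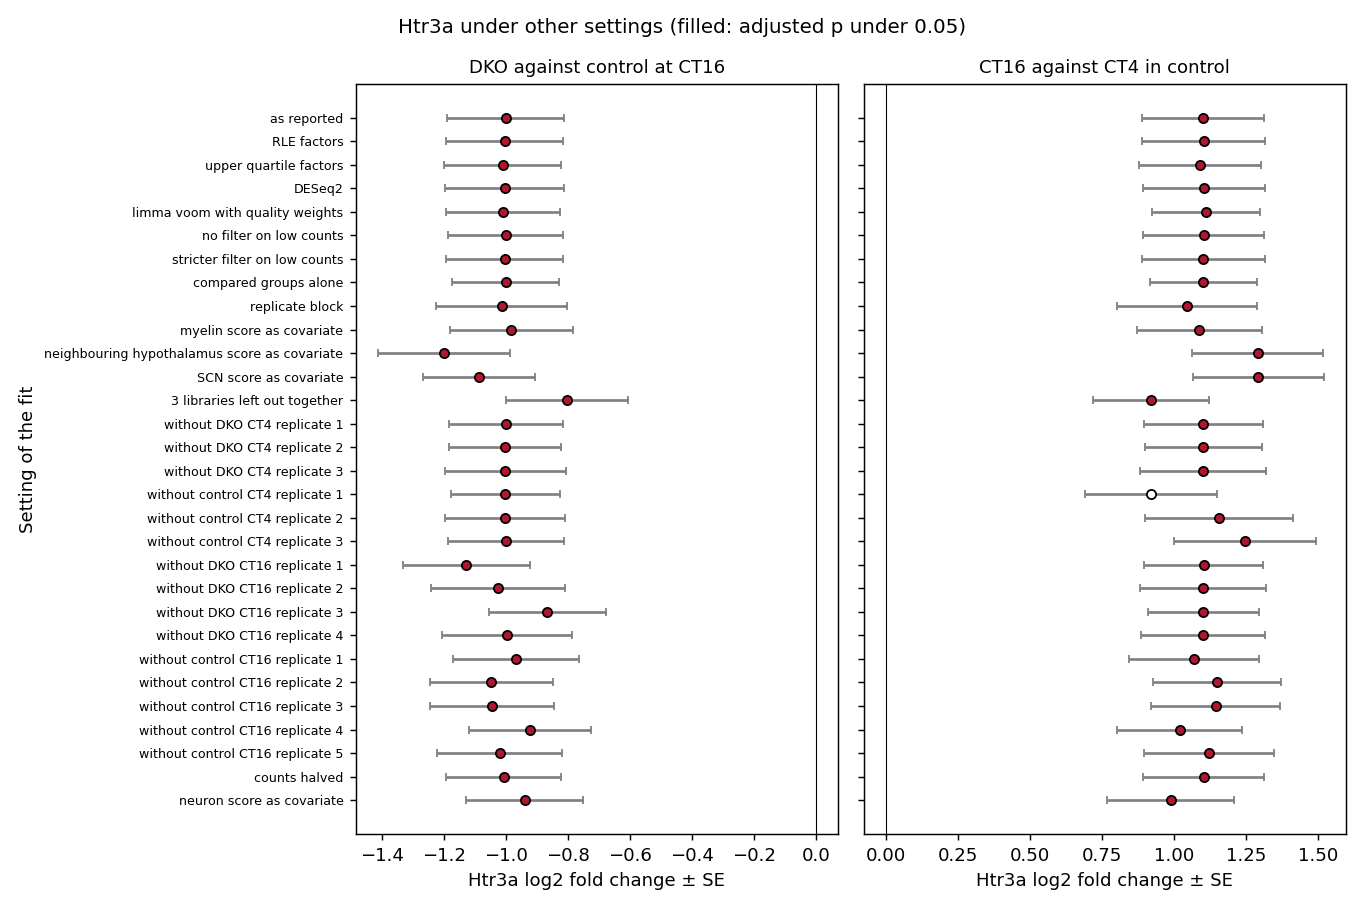
Log2 fold change of Htr3a under each analysis setting, for DKO against control at CT16 and for CT16 against CT4 in control, with filled points where the adjusted p is under 0.05. The genotype values lie between -1.20 and -0.80, and the time values between 0.92 and 1.29.

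Markers of other tissue were read in the same libraries. For genotype at CT16, 4.66% of all genes were called, 2.83% higher and 1.83% lower. Summed over 17 markers of other hypothalamic nuclei, the level ran from 443 to 778 CPM in DKO CT16 and from 717 to 1061 CPM in control CT16, 0 of 17 were called, and only Kiss1 was at 0 in any library (1 of 15). The same sum ran from 819 to 921 CPM in DKO CT4 and from 445 to 805 CPM in control CT4. SCN markers summed to 907 to 1463 CPM in DKO CT16 and 649 to 1274 CPM in control CT16, with 2 of 14 called, both higher in DKO (Rgs16 and Rasl11b). Of 6 astrocyte markers at CT16, Gja1 and Agt rose and Aldh1l1 fell in DKO, and their sum ran from 1889 to 2658 CPM in DKO and from 1730 to 2475 CPM in control. Of single markers in other lists, Folr1 (1 of 8, choroid plexus), Ppp1r1b (1 of 7 tested, telencephalon) and Tmem212 (1 of 6, ependyma) rose in DKO at CT16. Median log2 differences of these lists were 0.30, -0.16 and 0.15, so Ppp1r1b went against the median of its list. Folr1 stood at only 0.308 to 1.65 CPM. The part of the astrocyte and these other markers in the result was not tested. Neuronal markers summed to 3629 to 4651 CPM in DKO CT16 and 3962 to 4825 CPM in control CT16, with 0 of 8 called. Myelin markers summed to 3526 to 18626 CPM in DKO CT16 and 2678 to 9034 CPM in control CT16. Their median log2 difference was 0.72, with 0 of 8 called. With the score of each list as a covariate in turn, the CT16 genotype change of Htr3a was -1.20 (neighbouring nuclei, adjusted p = 0.00458), -1.09 (SCN, 0.00141), -0.98 (myelin, 0.00602) and -0.94 (neurons, 0.00809). Between times in control, 3 of 14 SCN markers were lower at CT16 (Rgs16, Six6 and Rasl11b) and 1 of 17 neighbouring markers, Crh, was higher. Of all genes, 4.21% were called in that comparison, 2.13% higher and 2.08% lower. The microglial markers P2ry12 and Cx3cr1 (2 of 6) and the endothelial markers Cldn5 and Kdr (2 of 5) fell at CT16. Prkcd rose, as 1 of 5 tested of the thalamic list, whose median log2 difference was -0.25. Microglial sums ran from 152 to 179 CPM at CT16 and from 190.3 to 224 CPM at CT4 in control. Endothelial sums ran from 76.9 to 96.4 CPM at CT16 and from 112 to 129 CPM at CT4. Neither sum overlapped between times, as held for 15.8% of all single genes. The part of these cell types in the rise of Htr3a was not tested. With the same covariates, the rise of Htr3a at CT16 in control was 1.29 (neighbouring nuclei), 1.29 (SCN), 1.09 (myelin) and 0.99 (neurons), and it was called with each. The SCN score holds Rgs16 and Rasl11b, which were themselves called in both comparisons. These fits hence cannot tell a difference of tissue from one of genotype or time, and the part of tissue was not tested.

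The Gi-coupled receptors gave no call between genotypes at either time. Htr1a, the raphe autoreceptor that is also found on target neurons, had 26, 21, 25.6 and 15.5 CPM in DKO CT16, against 25.5, 20.9, 30.8, 29.2 and 26.1 CPM in control CT16. It had 18.3, 20.5 and 18.3 CPM in DKO CT4, against 19.5, 18.9 and 17.8 CPM in control CT4. The genotypes overlapped at both times, whereas all 5 control libraries at CT16 lay above all 3 at CT4. The log2 difference of DKO from control was -0.26 ± 0.13 at CT16 (adjusted p = 0.297) and 0.02 ± 0.17 at CT4 (adjusted p = 0.974). CT16 minus CT4 in control was 0.50 ± 0.15, which missed the threshold (adjusted p = 0.0773). That value passed in 7 of 29 other settings and was 0.28 with the neuronal score as covariate (adjusted p = 0.207).

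Htr1d, a receptor of the same class found mainly on nerve endings, had 2.74, 2.52 and 2.50 CPM in DKO CT4, against 2.16, 1.89 and 1.45 CPM in control CT4. At CT16 it had 2.28, 0.768, 1.72 and 0.988 CPM in DKO, against 1.37, 1.33, 1.15, 1.63 and 1.36 CPM in control. The 3 DKO CT4 libraries were the highest of all 15, and did not overlap with control CT4, as held for 25.4% of all genes, or with DKO CT16, as held for 14.7%. Neither difference passed, at 0.49 ± 0.31 for DKO against control at CT4 (adjusted p = 0.497) and -0.84 ± 0.29 for CT16 against CT4 in DKO (95% interval -1.45 to -0.23, adjusted p = 0.140). No receptor was called in either of these comparisons, where 1.28% and 1.8% of all genes were, the second made up of 1.29% higher and 0.509% lower. At an unadjusted p under 0.05, none of the 10 passed at CT4 and Htr1d and Htr3a passed for time in DKO, against 14.8% and 18.6% of all genes.

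Tissue markers differed between genotypes at CT4. SCN markers summed to 977 to 1031 CPM in DKO CT4 and 1206 to 1300 CPM in control CT4. The sums did not overlap, as held for 25.4% of all single genes. None of the 14 was called, where 1.28% of all genes were. An unadjusted p under 0.05 was reached by 10 of the 14, against 14.8% of all genes, and their median log2 difference was -0.93. With the SCN score as covariate the CT4 difference of Htr1d was 0.06 (adjusted p = 0.974), and with the score of neighbouring nuclei it was 0.10 (adjusted p = 0.970). The SCN score itself ran from -0.75 to -0.66 in DKO CT4 and from -0.27 to 1.19 in control CT4, without overlap. The neighbouring score ran from 0.34 to 0.64 in DKO CT4 and from -1.04 to 0.44 in control CT4. The SCN list also holds Rgs16 and Rasl11b, which were called for genotype at CT16. These fits hence cannot tell a difference of tissue from one of genotype, and the part of tissue was not tested.

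Htr1b, the other terminal receptor, ranged from 3.95 to 6.69 CPM in DKO CT16 and from 4.50 to 6.66 CPM in control CT16, and the log2 difference was -0.06 ± 0.16 (95% interval -0.41 to 0.28). At CT4 it ranged from 5.30 to 6.30 CPM in DKO and from 4.09 to 6.04 CPM in control, a difference of 0.14 ± 0.20. Htr1f, the least abundant of the class, rested on 16 to 64 counts per library, at 0.395 to 0.924 CPM in DKO CT16 and 0.308 to 0.979 CPM in control CT16. Its genotype difference at CT16 was -0.01 with a 95% interval of -0.83 to 0.81, the widest of the 10 genes.

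Of the Gq-coupled receptors, Htr2a had 9.26, 6.93, 12.7 and 5.97 CPM in DKO CT16, against 10.2, 11.4, 11.9, 11.9 and 13.4 CPM in control CT16. Of the 4 DKO libraries, 3 lay below all controls, while replicate 3 lay among them. The log2 difference was -0.42 ± 0.18 (95% interval -0.81 to -0.04) and did not pass (adjusted p = 0.204). Without DKO CT16 replicate 3 it was -0.67 and passed (adjusted p = 0.0142), without replicate 4 it was -0.28 (adjusted p = 0.469), and with the neighbouring nuclei score as covariate it was -0.12 (adjusted p = 0.718). At CT4, Htr2a ranged from 9.98 to 11.2 CPM in DKO and from 7.70 to 11.7 CPM in control, a difference of 0.05 ± 0.22.

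Htr2c, the most abundant receptor, had 80.9, 82.3, 65.3 and 65.7 CPM in DKO CT16, against 82.8, 66.1, 80.9, 79.6 and 66.3 CPM in control CT16. It had 71.9, 68.1 and 61.0 CPM in DKO CT4, against 62.9, 81.8 and 71.0 CPM in control CT4. The groups overlapped throughout. Its differences were also the most tightly bounded of the 10, at -0.03 for DKO against control at CT16 (95% interval -0.24 to 0.18) and -0.10 at CT4 (95% interval -0.36 to 0.16). The interval between times was -0.11 to 0.38 in DKO and -0.17 to 0.30 in control.

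Among the Gs-coupled receptors, Htr7, which has been linked to the resetting of the SCN clock by serotonin, had 30.7, 28.5, 23.3 and 15.6 CPM in DKO CT16, against 29.1, 20.5, 30.0, 32.3 and 27.4 CPM in control CT16. It had 26.1, 24.2 and 20.4 CPM in DKO CT4, against 22.5, 22.9 and 20.5 CPM in control CT4. Here too the genotypes overlapped at both times. The differences were -0.18 ± 0.17 at CT16 (95% interval -0.55 to 0.19) and 0.10 ± 0.21 at CT4 (95% interval -0.36 to 0.56). Htr4 had 7.50, 7.51, 7.08 and 4.91 CPM in DKO CT16, against 6.17, 6.08, 8.36, 7.81 and 5.91 CPM in control CT16, a difference of -0.02 ± 0.16. At CT4 it had 5.66, 5.29 and 4.94 CPM in DKO, against 6.13, 3.94 and 4.70 CPM in control, a difference of 0.11 ± 0.19. Genotypes overlapped at both times. Its CT16 level in control stood 0.48 ± 0.17 above its CT4 level on the log2 scale, and this did not pass (adjusted p = 0.135).

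Htr5b ranged from 1.17 to 2.32 CPM in DKO CT16 and from 1.39 to 3.03 CPM in control CT16, a log2 difference of -0.34 ± 0.29. At CT4 it ranged from 2.03 to 2.86 CPM in DKO and from 1.51 to 2.88 CPM in control, a difference of 0.10 ± 0.35. The ranges overlapped at both times, and the interval at CT16, -0.95 to 0.26, was wide.

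**Figure D4:**
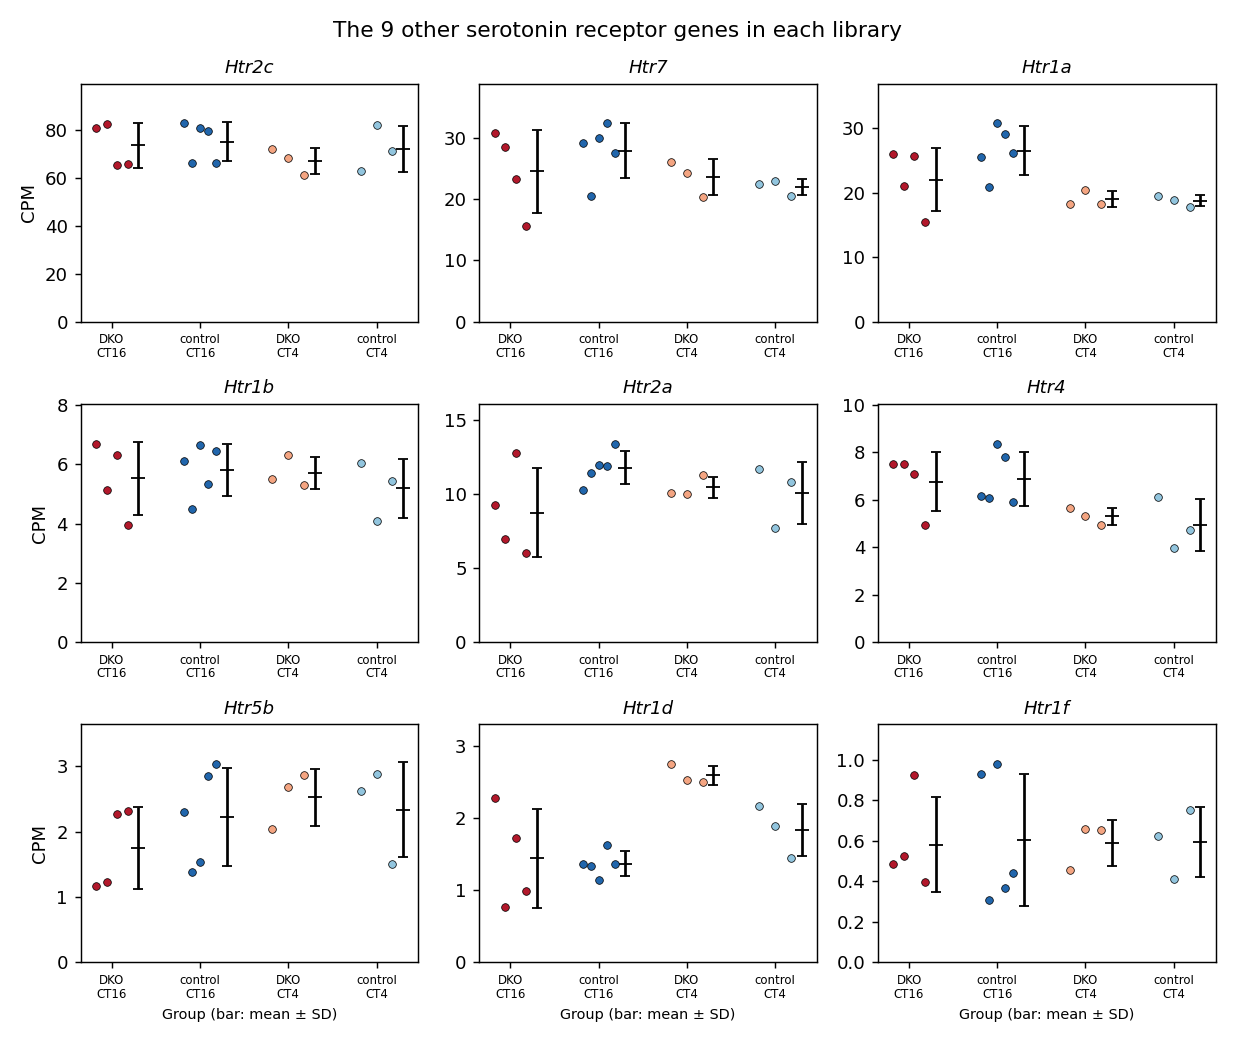
CPM of the other 9 receptor genes in each library of the 4 groups. The groups overlap in most panels, the 3 DKO CT4 libraries of Htr1d at 2.50 to 2.74 CPM stand above all others, and DKO CT16 replicate 4 is the lowest point for Htr1a, Htr1b, Htr2a and Htr7.

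Read over all 10 genes, 9 had a negative and 1 a positive log2 difference between DKO and control at CT16. Of all genes tested, 49.6% were negative, and the median was -0.12 for the 10 against 0.00 over all genes. At CT4, 7 were positive and 3 negative (median 0.08), against 49.5% positive of all genes. Between times, 8 of 10 were positive in control (median 0.20) and 6 of 10 in DKO (median 0.03). Of all genes, 48.6% and 51.8% were. For the interaction, 9 of 10 were negative, against 47.3% of all genes, with a median of -0.28 against 0.02 over all genes. None of the 10 passed, with 0.0118% of all genes called. None of the 10 had an unadjusted interaction p under 0.05 either. The genes share libraries, and 4 of them were lowest in DKO CT16 replicate 4, so these counts are a description.

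**Figure D5:**
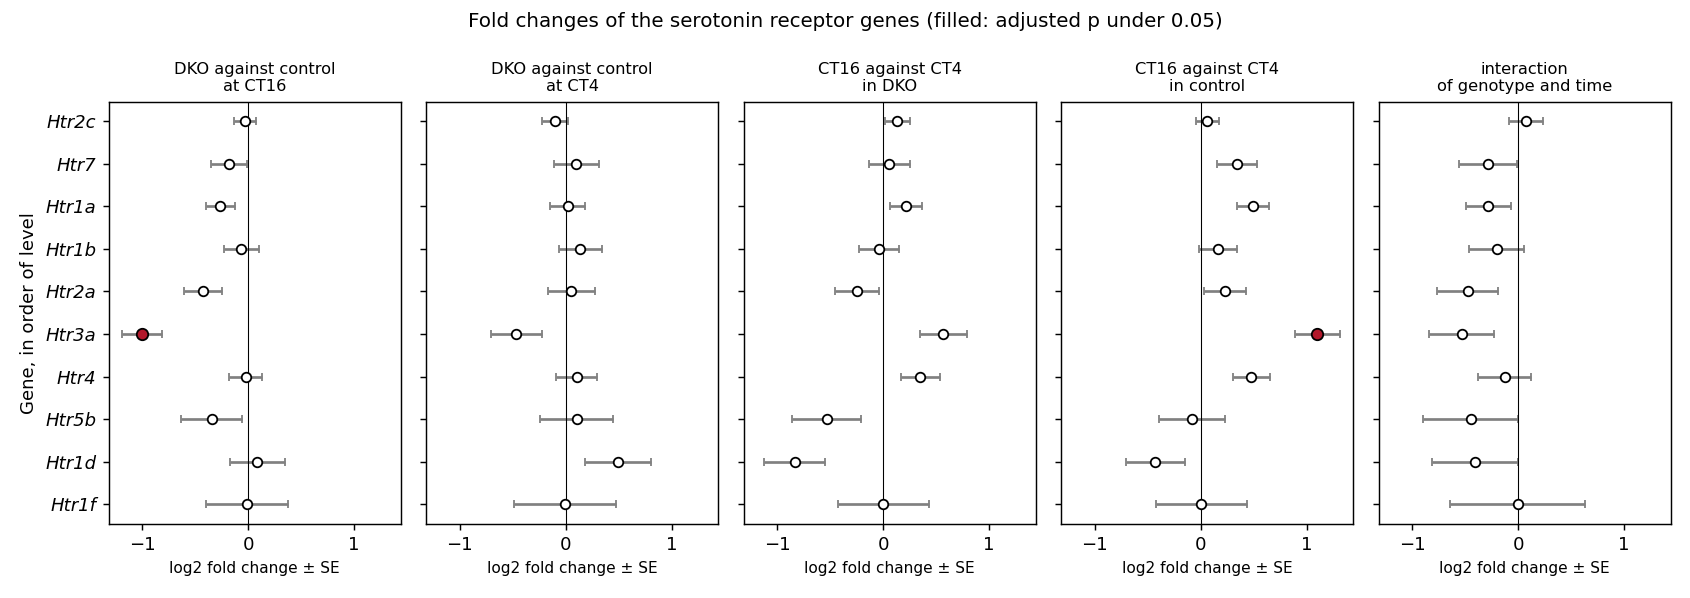
Log2 fold change of each receptor gene with its standard error in the 4 comparisons and the interaction. Only Htr3a is called, at -1.0 for DKO against control at CT16 and 1.10 for CT16 against CT4 in control.

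Levels of some receptors also varied together within groups. After subtraction of group means, log2 CPM of Htr1a correlated with that of Htr7 at r = 0.81, with Htr1b at 0.79 and with Htr4 at 0.71 over the 15 libraries. Each point is 1 library, so a pair shares its depth and its tissue, which varied between libraries, and the part of either was not tested. DKO CT16 replicate 4, the lowest of all 15 libraries for Htr1a, Htr1b and Htr7, enters these values, and its weight was not tested. Other pairs went the opposite way, among them Htr2a with Htr2c at r = -0.43 and Htr4 with Htr5b at -0.35. Htr3a did not follow Htr1a and Htr7, at r = -0.10 with Htr1a and 0.29 with Htr7. Its highest value among the receptors was 0.58 with Htr2c.

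The genes most like Htr3a were sought among 13547 genes whose log2 CPM averaged 1 or more. Over the 15 libraries, log2 CPM correlated best with Myof (r = 0.94), which encodes a membrane repair protein, Caprin1 (0.94), an RNA granule protein, Xbp1 (0.92), a transcription factor of the unfolded protein response, Alg2 (0.92), an enzyme of protein glycosylation, and Cadm1 (0.92), a cell adhesion molecule. The hundredth gene stood at 0.82, and the values rest largely on the group differences that all libraries share. Since these genes were picked for their likeness to Htr3a over the same libraries, their own differences are a description. For DKO against control at CT16 the log2 differences were -0.73 for Myof, -0.13 for Caprin1, -0.28 for Xbp1, -0.24 for Alg2 and -0.20 for Cadm1. For CT16 against CT4 in control they were 0.80 for Myof, 0.11 for Caprin1, 0.33 for Xbp1, 0.27 for Alg2 and 0.25 for Cadm1. After subtraction of group means the closest were Safb (0.92), Insm2, B330016D10Rik, Lancl2 and 1110002L01Rik (0.84 to 0.86), with the hundredth gene at 0.72.

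The 4 receptor genes outside the 10 gave no call in any comparison. Htr5a, a Gi-coupled receptor, had 3.42 ± 0.293 CPM per kb over the 15 libraries, close to Htr2a on that scale. Htr6, a Gs-coupled receptor, had 2.09, 2.19, 2.89 and 1.48 CPM in DKO CT16, against 3.69, 2.15, 3.03, 3.01 and 3.51 CPM in control CT16, a log2 difference of -0.50 ± 0.20 that did not pass (adjusted p = 0.167). Htr3b, which encodes a partner subunit of Htr3a and lies 23908 bases from it on chromosome 9, had 0 to 30 counts per library, and Htr2b 0 to 24.

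Genes that make, carry and break down serotonin gave 2 calls among 13 tested of 15, both for genotype at CT16, where 4.66% of all genes were called. Ddc, the decarboxylase of serotonin and dopamine synthesis, rose in DKO, with 90.0, 103, 89.9 and 106 CPM against 84.1, 79.7, 88.8, 75.6 and 70.7 CPM in control (0.29 ± 0.07, adjusted p = 0.0215). Maob, a monoamine oxidase, fell, with 27.9, 25.7, 29.7 and 27.8 CPM in DKO against 30.9, 34.7, 31.5, 39.5 and 38.2 CPM in control (-0.33 ± 0.08, adjusted p = 0.0201). The genotypes did not overlap for either gene, as held for 6.97% of all genes, and each call was lost in 7 of 29 other settings. The synthesis enzyme Tph2 and the transporter Slc6a4, which mark raphe neurons, stood at no more than 0.854 and 0.444 CPM in any library, and 4 of 5 raphe markers had a median under 1 CPM, with Gata3 at 0 in 11 libraries.

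Downstream of the receptors, 3 of 28 genes were called for genotype at CT16, where 4.66% of all genes were (2.83% higher and 1.83% lower). On the Gs side, 2 of 10 genes fell in DKO at CT16, Gnas, the Gs alpha subunit (-0.28 ± 0.06, adjusted p = 0.00895), and Prkaca, a catalytic subunit of protein kinase A (-0.25 ± 0.05, adjusted p = 0.00802). Adcy3, an adenylyl cyclase, fell in DKO at CT4 (-0.32 ± 0.07, adjusted p = 0.0386), where 1.28% of all genes were called. Between times in control, where 4.21% of all genes were called, Gnas rose at CT16 (0.24 ± 0.06, adjusted p = 0.0367) and the adenylyl cyclase Adcy8 fell (-0.48 ± 0.09, adjusted p = 0.00559). On the Gq side, 1 of 8 genes rose in DKO at CT16, the phospholipase gene Plcb3 (0.35 ± 0.07, adjusted p = 0.0118). Of these calls, that of Gnas between times was lost in 16 of 29 other settings, those of Gnas and Prkaca between genotypes in 3 each, that of Plcb3 in 1 and that of Adcy8 in none.

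On the Gi side, 1 of 10 genes was called, at CT4, where 1.28% of all genes were called and 0.574% were called higher. Rgs4, a brake on Gi and Gq signalling, had 166, 152 and 129 CPM in DKO CT4 against 87.8, 55.6 and 69 CPM in control CT4 (1.07 ± 0.23, adjusted p = 0.0484). The genotypes did not overlap, as held for 25.4% of all genes. With the SCN score as covariate the CT4 difference of Rgs4 was 0.59 (adjusted p = 0.288), and with that of neighbouring nuclei 0.67 (adjusted p = 0.251). Those of Adcy3 were -0.17 with each (adjusted p = 0.374 and 0.343). As for Htr1d, these fits cannot tell a difference of tissue from one of genotype. The call of Rgs4 was lost in 18 of 29 other settings and that of Adcy3 in 12. None of 9 receptor partners and RNA editing enzymes was called in any comparison. The smallest p-values among them were those of Mpdz, a scaffold of Htr2c, for genotype at CT4 (-0.20 ± 0.05, adjusted p = 0.0867), and of the scaffold Dlg4 (-0.17 ± 0.05, adjusted p = 0.0945) and the editing enzyme Adar (-0.15 ± 0.05, adjusted p = 0.128) for genotype at CT16.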

How the data were processed

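Total RNA of SCN punches was sequenced. The values deposited by the authors are read counts per gene and library, not normalized, with exonic lengths. STAR, featureCounts, DESeq2 and the build mm10 are named in the submitters' processing notes. Tool versions, annotation, filters on reads and use of strand are not given in the sources used. Of counts between 1 and 9, 75.6% were even. If reads were paired, both mates may have been counted, in which case a printed count is up to 2 per fragment, and halved counts were run for that reason. The 24419 listed genes include 3619 with no count and 0 of the mitochondrial chromosome. Libraries were grouped by their labels, which do not tell the mice of 1 pool from those of another. The p-values hence reflect spread from pool to pool. No pair within a group was alike within sampling noise.

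The receptors, gene lists and settings were chosen with earlier results of these data known. In R 4.3.3, edgeR 4.0.16 kept 16910 genes by filterByExpr and scaled them by TMM. All 15 libraries entered 1 model with a mean for each of 4 groups (11 residual degrees of freedom). The robust quasi-likelihood test gave 5 contrasts, and calls were made at an adjusted p under 0.05 (Benjamini-Hochberg, over all genes tested). Values with ± are log2 fold changes with standard errors unless another unit is given. Log2 CPM used a prior count of 2. All receptors were named in the comparisons, with called genes of each pathway list, or up to 3 of smallest p, and the 5 closest genes by each correlation.

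The 29 alternatives were DESeq2 1.42.0, voom of limma 3.58.1 with quality weights, upper quartile or RLE factors, no filter or 1 CPM in 3 libraries, the compared groups alone, a replicate block, marker scores as covariates, 3 libraries left out together, each library left out in turn, and, added after the data were seen, halved counts and a neuron score. The steps were tested on simulated counts. Comparison of the receptor proteins was planned and not run. Figures were drawn with matplotlib 3.10.9.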

Additional observations from a re-analysis of the deposited data

Results flagged for a closer look

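Htr4 in DKO CT16 replicate 4, at 4.91 CPM, lay far from the other 3 libraries of its group, at 7.08 to 7.51 CPM. The gap was 0.832 of the range of the group, just over Dixon's critical value for 4 libraries. Of 20 groups examined in this way, 1 stood out, and chance gives about 1 in 20. The same library had the highest myelin sum and the lowest neuronal sum, and the part of these in the value was not tested.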

How the results depend on the processing

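The fall of Htr3a in DKO at CT16 was called in all 29 other settings. For DKO against control at CT16, leaving out each library in turn gave 1 to 2 receptors called, with Htr2a joining without DKO CT16 replicate 3. For CT16 against CT4 in DKO, where none was called, 1 was called with limma voom (Htr1d), 1 with the myelin score (Htr1d) and 1 with 3 libraries left out together (Htr3a). For CT16 against CT4 in control, where 1 was called, 2 were called with DESeq2, 2 with the compared groups alone and 2 with the myelin score (Htr1a joining), and 3 with limma voom and 3 with 3 libraries left out together (Htr1a and Htr4 joining). Leaving out each library in turn gave 0 to 2 there: 0 without control CT4 replicate 1, and 2, with Htr1a joining, without DKO CT16 replicate 4 or without control CT16 replicate 2. The cause of these changes was not tested. At CT4 and for the interaction, edgeR, DESeq2 and limma voom each called 0 receptors, as did every other setting run, and none had an unadjusted p under 0.05 with edgeR. No receptor value reversed where it was called.

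Replicate numbers gave no clear sign of pairing: deviations of same-numbered libraries correlated at -0.184 to 0.147 over 19 pairs, 3 of them over 0.1. Differently numbered pairs were not read beside them, so these values do not settle whether libraries of the same number shared a batch. With the replicate block, Htr3a stood at -1.01 for genotype at CT16 (adjusted p = 0.0210) and 1.05 for time in control (adjusted p = 0.0437), and the counts of receptors called did not change.

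Over all genes, calls ran from 16 to 828 for genotype at CT4 (217 as reported), 368 to 1318 at CT16 (788), 47 to 1461 for time in DKO (304), 235 to 1816 in control (712) and 0 to 423 for the interaction (2). Fits on the compared groups alone cannot give an interaction. The planned protein comparison was not run. Counts were lowest for Htr1f, Htr2b and Htr3b, and intervals for Htr1d and Htr5b were wide.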
